A study of Mus musculus with 9 samples.

Results

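The RNA of fibroblasts from normal mouse ankles was set against that of macrophages from arthritic mouse ankles. The comparison took the 3 libraries of normal tissue-derived synovial fibroblasts (NDSF) and the 3 libraries of arthritis tissue-derived synovial macrophages (ADSM), 6 of the 9 libraries of the study, by their deposited labels. The 3 libraries of arthritis tissue-derived synovial fibroblasts (ADSF) shared the model and are given beside them. Cell type, state of the ankle and, by the study's methods, library kit all differed between NDSF and ADSM, so their parts in any difference cannot be told apart.

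All cells came from C57BL/6 mice, of an age that the labels and methods do not state, and were primary cultures at passage 1. ADSM and ADSF were taken from mice with collagen antibody-induced arthritis (CAIA), given 5 mg of antibody to collagen on day 0 and 50 µg of lipopolysaccharide on day 3, both into the peritoneum, and killed after 10 days. NDSF came from ankles without arthritis. Ankles were digested with collagenase, cells that attached within 1 h to a dish coated with type I collagen were kept as fibroblasts, and the others were grown for 1 to 2 weeks on a plain dish and freed of stromal cells with trypsin to give ADSM. The groups therefore also differed in their time in culture and the surface they grew on. Sequencing was on a MiSeq with paired reads of 75 bp. The study's methods name the TruSeq kit for ADSM and ADSF and the NEBNext Ultra II Directional kit for NDSF, whereas the deposited labels give TruSeq throughout. The study states that each group came from independent ankles, but no label ties a library to an ankle or shows how many mice the ankles came from, so the p-values below measure the spread between libraries.

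The lining of a joint, the synovium, is built mainly by these cell types. Synovial fibroblasts lay down collagen, fibronectin and proteoglycans, release lubricin and hyaluronan into the joint fluid, and make CSF1, the growth factor that keeps macrophages alive. Synovial macrophages carry the receptor for CSF1, take up debris and immune complexes through Fc receptors and scavenger receptors, and in arthritis are a main source of TNF and of the precursors of bone-resorbing osteoclasts.

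Values are reads per gene divided by a TMM (trimmed mean of M values) factor for each library. The value of 1 read was 0.920 to 0.999 in NDSF and 0.854 to 1.04 in ADSM, so a value of a few units rests on a few reads. The NDSF libraries held 3351184, 3142495 and 3227924 reads over 14596 to 15070 genes, and the ADSM libraries 3073890, 2380483 and 2765005 reads over 11915 to 12008 genes. Reads of a replicate pair were compared by a chi-square over genes, taken per degree of freedom. This was 2.33 to 6.06 between ADSM libraries and 1.71 between NDSF libraries 1 and 2, but 21.0 and 16.5 between NDSF library 3 and the others, so NDSF library 3 stands apart. It is named below beside results that change without it.

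The labelled cell types were checked against their defining markers. All 10 macrophage-defining genes (Csf1r, Cd68, Emr1, Itgam, Ptprc, Sfpi1, Fcer1g, Tyrobp, Laptm5 and Lyz2) were higher in ADSM, where together they made up 1.64, 1.599 and 1.55% of libraries 1 to 3, against 0.0693, 0.0695 and 0.03101% in NDSF. All 10 fibroblast-defining genes (Col1a1, Col1a2, Col3a1, Dcn, Pdgfra, Pdgfrb, Thy1, Cdh11, Vcam1 and Prrx1) were higher in NDSF, with 5.27, 5.24 and 3.51% of the libraries against 0.00241, 0.00281 and 0.00496% in ADSM. RNA of macrophage-defining genes was thus present at a low level in each NDSF library. In bulk RNA, a few macrophages among many fibroblasts and a little of each transcript in every cell cannot be told apart. The methods state that the mice were female. Xist, the RNA of the inactive X chromosome, was 2477, 1922 and 1872 in NDSF and 3.42, 0 and 2.804 in ADSM. The Y-linked genes went the other way. Ddx3y, an RNA helicase, was 94.8, 143 and 113 in ADSM and 0 in all 3 NDSF libraries, and Eif2s3y, Kdm5d and Uty were likewise 0 in every NDSF library and in every ADSF library. Sex or source of the cells therefore cannot be told apart from cell type either.

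Of 23420 genes in the table, 11889 reached 10 in 3 or more of the 9 libraries and were tested with limma on log2(value + 1). Fold changes on this scale understate the change of low genes. At a Benjamini-Hochberg adjusted p under 0.05, 5149 genes (43.3% of those tested) were higher in NDSF and 3810 (32.0%) were lower, 75.4% in all. Values of all 3 NDSF libraries lay above all 3 ADSM libraries for 44.5% of tested genes and below them for 33.1%. Without NDSF library 3, 5019 genes were higher and 3896 lower. The balance of the directions depended on the scaling, with 5627 higher and 3289 lower when libraries were scaled by upper quartile and 4406 and 4755 by total reads. Among called genes, those higher in NDSF had the larger fold changes. Their median log2 fold change was 2.09 against -1.11 for the lower genes, 1725 were over 16-fold higher and 237 over 16-fold lower, and 287 were over 256-fold higher against 11 lower. Among the higher genes 970 had no read in any ADSM library, whereas 26 of the lower genes had none in NDSF. The filter did not treat the directions alike. A gene read in both fibroblast groups could pass through any 3 of 6 libraries, but a gene read in ADSM alone only if all 3 ADSM libraries reached 10, and without ADSM library 1, 2 or 3 the lower genes numbered 3255, 3390 and 3249. Counts of list members below are over those that passed, and a member that passed only through the group where it was high had to differ. These counts stand beside the 43.3% higher and 32.0% lower among all tested genes. Genes with a mean of at least 1000 in NDSF and under 10 in ADSM numbered 98, and 6 showed the reverse. The median log2 fold change of all tested genes was 0.18. It was -0.08 when libraries were scaled by total reads and 0.34 by upper quartile, and small differences are read against this shift below.

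**Figure D1:**
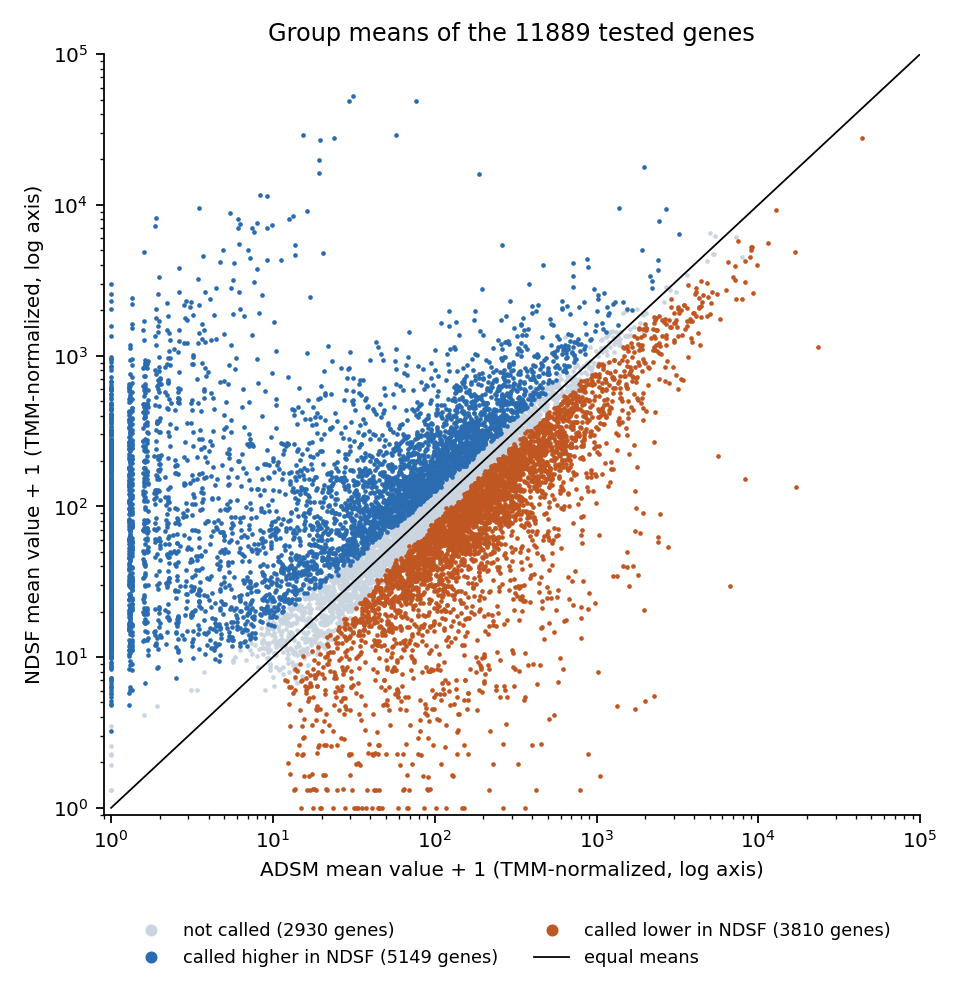
Mean value plus 1 of each of the 11889 tested genes in ADSM (horizontal) and NDSF (vertical), both on log axes, with genes called higher in NDSF in blue (5149), lower in orange (3810) and not called in grey (2930). Points along the left edge are genes with no read in ADSM, 970 of them called, against 26 called genes with no read in NDSF along the lower edge.

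Among the genes with the largest fold change in favour of NDSF were genes of secreted and matrix proteins and of the receptor Pdgfra. Sfrp2, a secreted regulator of Wnt signalling (chromosome 3, 83766321 to 83774314 on mm10), had values of 8021, 8552 and 5069 in NDSF libraries 1, 2 and 3 and 1.71, 0 and 0.935 in ADSM. The ratio of the means was 8188 (counting interval 2801 to 39708), the latter covering counting error only at 95%. Its log2 fold change was 11.98 (SE 0.50, adjusted p = 3.36e-09). Cilp, a protein of the cartilage intermediate layer (chromosome 9, 65265180 to 65280605), was 10885, 10954 and 2835 against 0.854, 0 and 1.87, a log2 fold change of 11.96. NDSF library 3 was the lowest of its group for both genes, and no library overlapped. Eln, elastin (chromosome 5, 134702596 to 134747254), stood at 3167, 3403 and 2432 and had no read in ADSM, which makes it at least 3184-fold higher when ADSM is set to 3 reads over the group, the floor used for every gene without reads. The fitted fold change of such genes depends on the value added before taking logs and is not a bound. Dcn (decorin), Cxcl12, Igfbp7, Col3a1, Myoc, Pdgfra, Col1a1, Prg4, Gas1, Gpx3, Col1a2 and Abi3bp completed the 15 largest, with log2 fold changes of 10.70 to 11.40. Myoc (myocilin), a secreted glycoprotein, varied most within NDSF, at 4244, 2884 and 571, and had no read in ADSM.

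The 15 leading genes of the other direction had varied functions. Mycn, a MYC-family transcription factor (chromosome 12, 12936093 to 12941836), was 1112, 927 and 1119 in ADSM and 0.9203, 0 and 0.939 in NDSF, 2 reads in all. The ADSM mean was 1699 (counting interval 469.9 to 14034) times the NDSF mean, and the log2 fold change was -9.40 (SE 0.52, adjusted p = 3.25e-08). Cldn11, a tight junction protein (chromosome 3, 31149920 to 31164326), was 920.0, 677 and 784 against 0.9203, 0 and 0, with a log2 fold change of -9.31. The betaine and GABA transporter Slc6a12 reached 2967, 1518 and 2307 in ADSM against 1.84, 7.99 and 3.75, and its neighbour in function Slc6a13 308, 209.7 and 273 against no read, at least 277-fold. The organic anion transporter Slco4a1 was tight in ADSM, at 1705, 1751 and 1703, and 3.68, 5.99 and 0.939 in NDSF. Fxyd2, a subunit that tunes the sodium pump, gave 2456, 1480.1 and 2055 against 5.52, 4.99 and 1.88. Of the other 9 among the 15 largest, Parvg, Slfn4, Cx3cr1, Car2, Itga4, Ranbp3l, Plcb2, Nup210 and Eif2s3y, Car2 (carbonic anhydrase II) was the most uneven, at 584, 220.0 and 468 in ADSM.

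**Figure D2:**
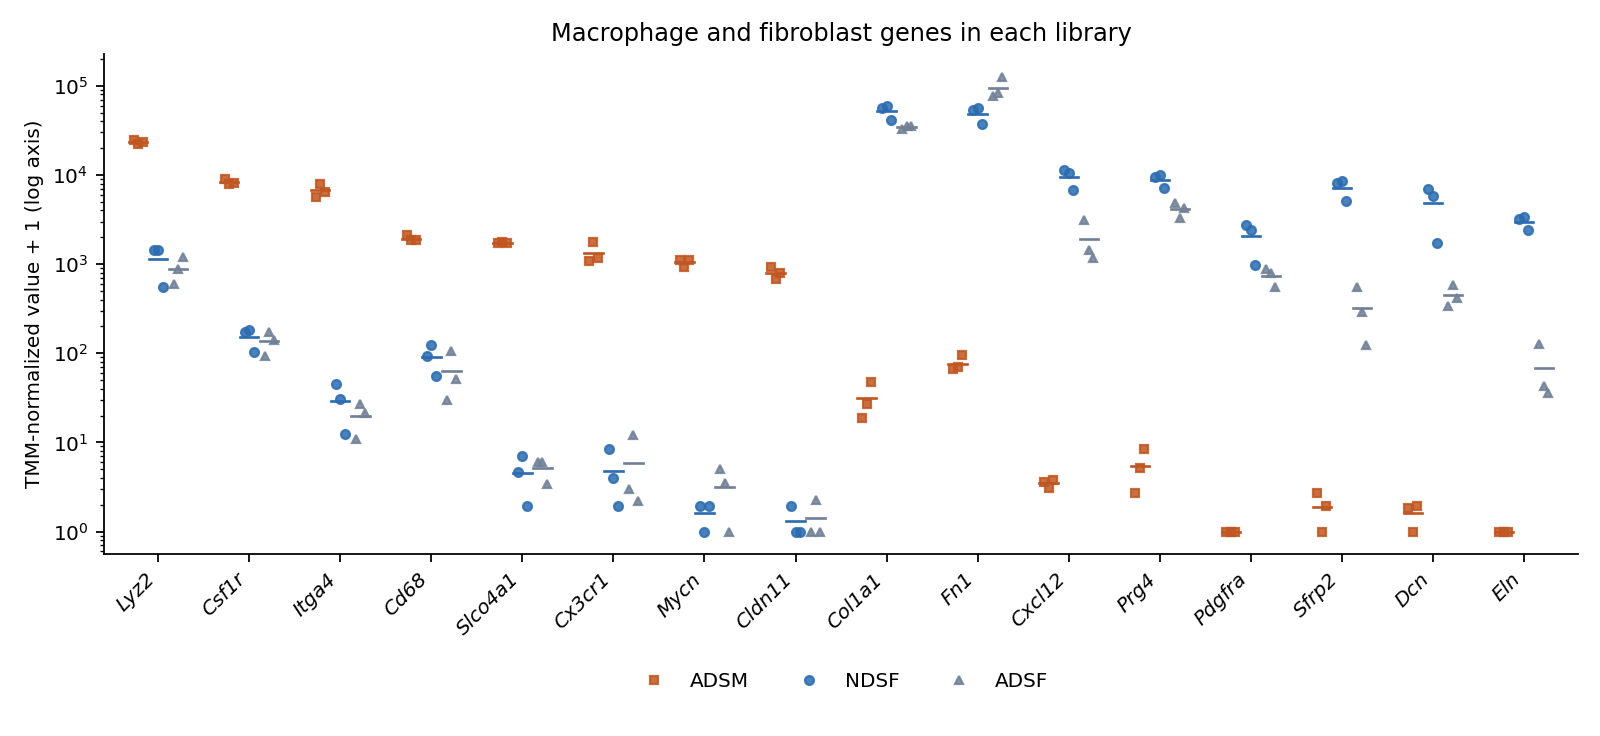
Value plus 1 (log axis) of 16 genes in each library, ADSM as orange squares, NDSF as blue circles and ADSF as grey triangles, with a line at each group mean. The 8 genes on the left are higher in ADSM and the 8 on the right higher in NDSF without overlap, and the ADSF libraries sit with NDSF on the same side of ADSM for all 16.

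The stretches just upstream of the start sites of the leading genes are shown because the comparison turns on genes read in one cell type and all but unread in the other. They are the 250 bases before the RefSeq start, on build GRCm38.p6, which is the mm10 build of the deposited coordinates, and read 5′ to 3′ on the strand of the gene. Eln is named only. Capitals mark matches, on either strand, to AGGAAGT (bound by PU.1 and other ETS factors), TGTGGTT (RUNX), TGANTCA (AP-1), CATTCC (TEAD) and TATAA (the core of a TATA box, added after the windows were seen). Sfrp2 (plus strand, chr3:83766071-83766320) and Cilp (plus, chr9:65264930-65265179) were higher in NDSF, and Mycn (minus, chr12:12941837-12942086) and Cldn11 (plus, chr3:31149670-31149919) lower. The next gene of each direction with a TEAD or a PU.1 match was added after its match was seen. These were Col3a1 (plus, chr1:45311288-45311537) and the interferon- and growth-regulated Slfn4 (plus, chr11:83174936-83175185).
Sfrp2: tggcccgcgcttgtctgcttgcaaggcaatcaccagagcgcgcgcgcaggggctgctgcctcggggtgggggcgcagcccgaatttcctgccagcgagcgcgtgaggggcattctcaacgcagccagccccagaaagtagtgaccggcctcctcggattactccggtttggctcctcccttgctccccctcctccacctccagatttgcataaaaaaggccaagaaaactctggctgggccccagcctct
Cilp: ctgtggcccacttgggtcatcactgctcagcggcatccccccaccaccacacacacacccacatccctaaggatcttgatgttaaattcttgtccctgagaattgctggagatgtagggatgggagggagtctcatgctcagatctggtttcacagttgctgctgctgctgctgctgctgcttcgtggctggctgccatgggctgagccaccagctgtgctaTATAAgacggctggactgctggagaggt
Col3a1: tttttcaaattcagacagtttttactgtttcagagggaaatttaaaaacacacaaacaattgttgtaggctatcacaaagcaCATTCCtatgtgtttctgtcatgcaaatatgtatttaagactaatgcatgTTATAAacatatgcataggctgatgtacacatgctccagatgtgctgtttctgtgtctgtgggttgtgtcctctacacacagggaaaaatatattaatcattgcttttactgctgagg
Mycn: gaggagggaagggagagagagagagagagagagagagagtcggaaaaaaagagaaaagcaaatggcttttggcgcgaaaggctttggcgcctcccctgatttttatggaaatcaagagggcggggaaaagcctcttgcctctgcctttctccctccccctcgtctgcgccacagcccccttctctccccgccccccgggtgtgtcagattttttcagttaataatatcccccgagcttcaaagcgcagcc
Cldn11: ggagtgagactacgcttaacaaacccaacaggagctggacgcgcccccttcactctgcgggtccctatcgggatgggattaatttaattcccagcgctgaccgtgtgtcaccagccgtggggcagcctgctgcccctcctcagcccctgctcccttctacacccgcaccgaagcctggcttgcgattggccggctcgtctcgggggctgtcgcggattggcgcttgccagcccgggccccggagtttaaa
Slfn4: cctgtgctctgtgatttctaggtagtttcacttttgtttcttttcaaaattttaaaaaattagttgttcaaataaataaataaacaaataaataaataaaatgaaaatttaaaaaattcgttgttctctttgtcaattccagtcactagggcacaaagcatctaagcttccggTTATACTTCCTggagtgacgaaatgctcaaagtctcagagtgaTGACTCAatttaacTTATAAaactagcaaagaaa
Sfrp2, Mycn and Cldn11 held none of these letters in the window, and Cilp held TATAA 28 bases before its start. Col3a1 held CATTCC 168 bases before its start, and TATAA from base 118 on the minus and base 117 on the plus strand. Slfn4 held AGGAAGT on the minus strand from base 73, which shares 1 base with a TATAA match beside it, and TGANTCA from base 34. It also held TATAA from base 20 on the minus and base 19 on the plus strand.

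The same letters were counted in 1 promoter per gene, 250 bases before to 50 after the start, for the called genes that the RefSeq table covers (3760 of 5149 higher and 2905 of 3810 lower) and for all 27025 genes of that table. AGGAAGT was in 12.7% of promoters of genes lower in NDSF, 7.02% of those higher and 9.56% of all. TGTGGTT was in 3.96%, 2.98% and 5.36% in the same order, TGANTCA in 3.72%, 5.43% and 7.86%, and CATTCC in 10.1%, 13.7% and 14.6%. TATAA was in 12.8%, 12.6% and 25.5%. Among all tested genes the shares were 8.91%, 3.38%, 4.68%, 11.8% and 12.6% in the order of the motifs above, so the share with TATAA in called genes was that of tested genes. These are counts of letters, given without a test, and a match is not a binding site.

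Macrophage receptors and surface proteins were lower in NDSF almost without exception. Of 21 tested members of a list of growth factor receptors and surface markers, 19 were lower and 1, Mertk, was higher (median log2 fold change -4.49). Without ADSM library 1, 2 or 3, 19 passed the filter and 17, 16 and 17 were lower. Csf1r, the receptor for CSF1, was 170.3, 182 and 103 in NDSF and 8912, 7950.4 and 8058 in ADSM (log2 fold change -5.81, SE 0.24, adjusted p = 3.69e-09). The lysozyme gene Lyz2 had 1453, 1433 and 550.0 in NDSF against 24849, 22083 and 23626, and its near copy Lyz1, with which it may share reads, 187, 172 and 44.1 against 16364, 16820.5 and 18180.3. Both had their lowest value in NDSF library 3, and no library of one group reached the other. Cx3cr1, the fractalkine receptor of lining macrophages and monocytes, was 7.36, 2.997 and 0.939 against 1095, 1758 and 1180.5. Cd52, a small leukocyte surface protein, showed 4.602, 2.997 and 1.88 against 563, 548 and 531. Itgam, one chain of the complement receptor CR3, had a smaller difference, 60.7, 75.9 and 40.4 against 423, 740.0 and 461 (log2 fold change -3.18), as did Emr1, which codes for F4/80, at 109, 112 and 50.7 against 441, 338 and 379 (log2 fold change -2.16). Mertk, a receptor for dying cells that marks resting tissue macrophages, was 39.6, 23.97 and 15.96 in NDSF and 1.71, 0 and 4.67 in ADSM (log2 fold change 3.38, SE 0.62, adjusted p = 4.60e-04). It was also higher in NDSF than in ADSF, by 2.08 on the log2 scale (adjusted p = 0.0372). Mertk passed the filter only through the 3 NDSF libraries, and without any 1 of them it was not tested.

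Signalling below these receptors followed the same direction. Of 22 tested Fc gamma receptors and proteins of ITAM signalling, the relay used by Fc and related receptors, 21 were lower. Tyrobp, an adaptor that pairs with Trem2, was 36.8, 41.95 and 23.5 in NDSF and 1953, 1865 and 1632 in ADSM, and Trem2 itself, named after its values were seen, 35.9, 35.96 and 21.6 against 726, 772 and 627. The tyrosine kinase Btk stood at 10.1, 7.99 and 5.63 against 503, 421 and 421 (log2 fold change -5.68). Prkcb, a protein kinase C, was the exception, at 14.7, 14.98 and 6.57 in NDSF with no read in ADSM. It passed the filter with the help of ADSF and was not tested without NDSF library 1 or 2, without ADSF library 3 or with NDSF and ADSM alone. All 20 tested genes of leukocyte adhesion and the leukocyte actin machinery were lower (median log2 fold change -4.89). Without any 1 ADSM library 16 of them passed the filter, all lower. Of the Fc and ITAM list 19 then passed and 17 were lower. Members that passed only through the 3 ADSM libraries had to be lower. Itga4, the alpha chain of the receptor for VCAM1 and fibronectin, differed most in absolute terms, 44.2, 29.97 and 11.3 against 5729.5, 7997 and 6385 (log2 fold change -8.01, SE 0.44), while its ligand Vcam1 was 548, 554 and 502 in NDSF and 0.854, 0 and 0.935 in ADSM. Parvg, which links integrins to actin in blood cells, was 0.9203, 0.999 and 1.88 against 990.1, 791 and 868.

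Transcription factors of the myeloid lineage were divided. Of 19 tested, 11 were lower in NDSF, 6 were higher and Mitf and Nr1h3 were not called. Without ADSM library 1, 2 or 3, 14 passed the filter, of which 6 were lower and 6 higher. Sfpi1, which codes for the lineage factor PU.1, was 25.8, 29.97 and 16.9 in NDSF and 643, 497 and 557 in ADSM (log2 fold change -4.52). Irf5, a driver of inflammatory cytokine genes, was 34.1, 28.97 and 41.3 against 421, 427 and 385, and Tal1, a blood lineage factor, 3.68, 5.99 and 5.63 against 113, 111 and 109. Against these, Maf, a transcription factor of mature macrophages, was 269, 296 and 211 against 0, 1.04 and 0, a ratio of means of 747 (counting interval 134 to 29550.0). Cebpa was 468, 483 and 494 against 112, 77.8 and 89.7, Cebpb 145, 133 and 120.1 against 35.02, 18.7 and 30.8, Runx1 697, 698 and 512 against 74.3, 110.0 and 79.4 and Klf4 129.8, 133 and 277 against 20.5, 30.1 and 19.6. For Maf, Cebpa, Cebpb, Runx1 and Klf4 every NDSF library lay above every ADSM library. Maf, Cebpa, Cebpb and Runx1 were higher in NDSF than in ADSF as well, with log2 fold changes of 1.15 to 2.75, and Klf4 was not called there (-0.11).

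Genes that sense microbes were mostly lower in NDSF. Of 27 tested Toll-like receptor and inflammasome genes, 18 were lower and 4 higher. Without ADSM library 1, 2 or 3, 19 or 20 passed the filter and 11 were lower. Aim2, a sensor of DNA in the cytosol, was 3.68, 6.99 and 1.88 in NDSF and 155, 141 and 158 in ADSM, and Ly86, a partner of the receptor Cd180, 4.602, 5.99 and 2.82 against 262, 238 and 262. Tlr3, which detects double-stranded RNA, was 69.02, 79.9 and 31.9 against 7.69, 10.4 and 12.2, Tlr5, the receptor for flagellin, 14.7, 20.98 and 22.5 against no read, and Irak3, a brake on this pathway, 131, 138 and 102 against 12.8, 31.1 and 18.7. Pycard, the inflammasome adaptor, was uneven in NDSF, at 21.2, 2.997 and 15.02, with no read in ADSM, and passed the filter with the help of ADSF. With NDSF and ADSM alone, 26 genes of the list passed and 3 were higher. The same counts held without ADSF library 1 or without NDSF library 1 or 3. Tlr2, named after its values were seen, was 149, 132 and 54.4 against 771, 915 and 715, and Tlr4, the receptor for lipopolysaccharide, was not called, at 208, 189.8 and 99.5 against 135, 199 and 165 (log2 fold change -0.06, 95% interval -0.64 to 0.53). The groups overlapped for Tlr4. Of 6 tested NADPH oxidase genes, which make the oxidative burst of phagocytes, 5 were lower in NDSF, among them Cybb, the catalytic subunit, at 69.02, 62.9 and 26.3 against 1975, 3777 and 2553. Nox4, an oxidase of mesenchymal cells, was 199, 169.8 and 54.4 against no read, at least 149.6-fold.

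Lysosomal genes did not move as a block. Among 23 tested members 7 were higher and 9 lower, against 43.3% and 32.0% of all tested genes. The median log2 fold change was -0.01, and without NDSF library 3 the counts were 10 and 8. Ctsk, cathepsin K, a collagen-degrading protease, was 803, 793 and 586 in NDSF and 2.56, 4.15 and 1.87 in ADSM (log2 fold change 7.59, SE 0.23, adjusted p = 3.74e-10). Cd63, a membrane protein of late endosomes, was 2331, 2305 and 1837 against 449, 418 and 429.9. The macrophage protease Ctss went the other way, at 178, 131 and 96.7 against 1111, 1213 and 1228, as did the lysosomal lipase Lipa, at 448, 423 and 283 against 1738, 1489 and 1438. Ctsl hardly differed, at 1534, 1420.3 and 1094 against 1356, 1384 and 1304 (log2 fold change -0.01, 95% interval -0.28 to 0.26). Of 9 tested osteoclast genes 5 were lower, or 3 of 8 without ADSM library 1 or 3, and 3 were higher. Tnfrsf11a, the receptor RANK, was 14.7, 7.99 and 7.51 in NDSF and 332, 246 and 319 in ADSM. Acp5, the phosphatase TRAP, was 16.6, 12.98 and 7.51 against 214, 32.2 and 152, with ADSM library 2 far below the others (adjusted p = 0.0213), and the call was lost without ADSM library 1, ADSM library 3 or NDSF library 3 (adjusted p = 0.0817, 0.0652 and 0.0548). Itgb3, an integrin chain shared by osteoclasts and fibroblasts, was 70.9, 53.9 and 58.2 against 0.854, 0 and 0. Clcn7 and Ostm1, partners in acidifying the resorption space, passed the test in favour of NDSF with small log2 fold changes of 0.50 and 0.38, both lost under total-read scaling. Ostm1 was also lost without ADSM library 1 or 3 or NDSF library 2 or 3 (adjusted p between 0.0532 and 0.0998). Dcstamp, Ocstamp, Oscar, Calcr and Mmp9 were under the filter.

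Markers of resident tissue macrophages were higher in the fibroblast libraries. Of 13 tested, 11 were higher in NDSF, 1 (Fcna, not tested without any 1 ADSM library) was lower and Siglec1 was not called, with a median log2 fold change of 5.26. Gas6, the ligand of Mertk and Axl, is also made by fibroblasts and took most of the list, at 10680.1, 10543 and 6059 in NDSF and 7.69, 26.99 and 11.2 in ADSM. F13a1, coagulation factor XIII A, was 234, 225 and 416 against no read, and Aqp1, a water channel, 598, 717 and 503 against no read. The next genes were named after their values were seen. C1qa, a chain of complement C1q, was 67.2, 74.9 and 25.3 against 0, 1.04 and 0, Mrc1, the mannose receptor, 95.7, 99.9 and 32.9 against 1.71, 2.08 and 0, and Folr2, a folate receptor, 85.6, 77.9 and 47.9 against 0.854, 1.04 and 0.935. NDSF library 3 was the lowest of its group for C1qa, Mrc1 and Folr2 and the highest for F13a1. The list made up 0.4298, 0.418 and 0.258% of the NDSF libraries, 0.206, 0.129 and 0.147% of the ADSF libraries and 0.00277, 0.003697 and 0.00322% of ADSM. Macrophage-defining RNA was present in the same NDSF libraries at the shares given above, lowest in library 3. Its part in these values was not tested.

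Of 5 tested genes of MHC class II and costimulation 4 were lower in NDSF and H2-DMb1 was higher. The lower count was 1, 2 and 0 without ADSM library 1, 2 and 3, where 3 passed the filter, and 2 without NDSF library 1 or 2, and H2-DMb1 was not tested with NDSF and ADSM alone. The list took 0.0339, 0.0336 and 0.0269% of the ADSM libraries and 0.00233, 0.0021 and 0.00201% of NDSF. H2-Ab1, a chain of MHC class II, was 2.76, 1.998 and 2.82 in NDSF and had no read in ADSM, and H2-Eb1 4.602, 3.995 and 1.88 and none. Both were under the filter. Cd74, the invariant chain that accompanies class II, was 616, 651 and 471 in ADSM and 6.44, 9.99 and 0.939 in NDSF (log2 fold change -6.73), and Cd83, a marker of activated antigen-presenting cells, 180.2, 96.5 and 133 against 3.68, 4.99 and 4.69. Of 12 tested genes of eicosanoid synthesis 5 were higher and 6 lower, against 43.3% and 32.0% of all tested genes. The higher count was 3 without ADSM library 3 or NDSF library 2, and under total-read scaling 3 were higher and 7 lower. Alox5ap, needed for leukotrienes, was 64.4, 49.9 and 18.8 in NDSF and 407, 381 and 328 in ADSM, and Pla2g4a, which frees arachidonic acid, 83.7, 76.9 and 137 against 584, 721 and 721. The prostaglandin E synthase Ptges was 69.02, 76.9 and 106 against 2.56, 7.27 and 3.74, Ptgs1 (COX-1) 53.4, 50.9 and 65.7 against 5.13, 14.5 and 6.54, and the prostacyclin synthase Ptgis 241, 198 and 109.8 against no read, at least 194-fold.

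Collagen genes were higher in NDSF. All 20 tested chains were called, with a median log2 fold change of 9.22, and together they took 6.91, 7.001 and 5.11% of the NDSF libraries against 0.00491, 0.00609 and 0.00792% in ADSM. Col1a1, the alpha 1 chain of type I collagen (chromosome 11, 94936270 to 94951856), was 56145, 59884 and 41848 in NDSF and 17.9, 25.9 and 46.7 in ADSM (log2 fold change 10.81, SE 0.27, adjusted p = 1.18e-10). Col1a2, its partner chain, was 55618, 55542 and 35362 against 23.1, 20.8 and 42.1, and Col3a1, the fibrillar collagen of loose tissue, 33959, 33326 and 20292 against 9.397, 18.7 and 14.95. Per kilobase of exon, Col1a1 stood at 11202 and Col3a1 at 5247 in NDSF, in units of mean value. Col16a1, which joins fibrils to other matrix, was 1057, 1052 and 728 against no read, at least 1003-fold. The traces in ADSM were highest in library 3 for Col1a1 and Col1a2, and second highest there for Col3a1.

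The enzymes that finish collagen followed it. All 21 tested genes of collagen modification and crosslinking were higher (median log2 fold change 7.95). Lox, lysyl oxidase, which crosslinks collagen and elastin, was 24902, 26654 and 28861 in NDSF and 11.1, 13.5 and 30.8 in ADSM, Loxl1 1676, 1717 and 1297 against no read, and Serpinh1, the collagen chaperone, 7284, 7779 and 9245 against 4.27, 6.23 and 4.67. Bmp1, the protease that trims procollagen, was 906, 944 and 768 against 1.71, 3.11 and 1.87. All 10 small leucine-rich proteoglycans that were tested and all 26 matrix glycoproteins were higher too. Dcn, which binds collagen fibrils, was 6943, 5878 and 1719 in NDSF, a ratio of means of 8128 (counting interval 2249.7 to 67122), and Bgn (biglycan) 17292, 17308 and 14139.7 against 16.2, 13.5 and 25.2. Fn1, fibronectin (chromosome 1, 71585473 to 71653234), was 52959.7, 55797 and 37349.9 against 64.9, 68.5 and 93.5 (log2 fold change 9.31, SE 0.23), and Fbn1, fibrillin, 11576, 12879 and 9665 against 5.13, 7.27 and 12.2. Thbs1, thrombospondin, was highest in NDSF library 3, at 21907, 25349 and 39783 against 46.98, 50.9 and 71.04. Of the 13 tested basement membrane genes 12 were higher, such as the laminin chain Lamb2 at 2623, 2564 and 1612 against 2.56, 1.04 and 2.804, and Col4a5, a chain of type IV collagen, was lower, at 137, 143 and 154 against 246, 251 and 211 (log2 fold change -0.70, adjusted p = 0.0106).

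Matrix proteases and their inhibitors were higher together. Of 26 tested, 25 were higher in NDSF and only Adam8, a leukocyte metalloprotease, was lower, at 202, 174 and 113 against 1046, 955 and 941. Adamts5, an aggrecanase, was 1525, 1309 and 1442 in NDSF and 0.854, 1.04 and 0.935 in ADSM, 1 read per ADSM library, and Timp2, an inhibitor of metalloproteases, 4575, 4683 and 4116 against 6.83, 6.23 and 5.61. Named after their values were seen, Mmp3 was 181, 152 and 86.3 against 0, 0 and 5.61, Mmp13 306, 344 and 52.6 against 0, 0 and 1.87 and Timp1 1396, 1447 and 1331 against 2.56, 1.04 and 8.41. Mmp13 was several times lower in NDSF library 3 than in the others, whereas Timp1 was even. For the joint lining itself, 15 of 17 tested genes were higher. Prg4, lubricin (chromosome 1, 150449412 to 150466165), was 9499, 9922 and 7047 in NDSF and 1.71, 4.15 and 7.48 in ADSM (log2 fold change 10.80, SE 0.33, adjusted p = 3.98e-10). Thy1, a marker of the layer below the lining, was 1413, 1679 and 1364 against 0, 2.08 and 2.804, and Cdh11, the cadherin of synovial fibroblasts, 1299, 1360.4 and 1029 against 1.71, 2.08 and 4.67. Cd44, the hyaluronan receptor, was not called, at 504, 438 and 769 against 444, 498 and 465 (log2 fold change 0.24, 95% interval -0.22 to 0.70), and its groups overlapped.

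Transcription factors of limb mesenchyme were all in favour of NDSF. Each of 36 tested was higher (median log2 fold change 6.14). Of the 40 listed, 23 had no read in ADSM, and with NDSF and ADSM alone 34 passed the filter, all higher. Prrx1, a homeobox factor of limb bud mesenchyme, was 2107, 1949.7 and 1276 in NDSF and 0.854, 0 and 1.87 in ADSM. Yap1 and Wwtr1, which code for the Hippo effectors YAP and TAZ, were 429.8, 484 and 429 and 456, 451 and 404 with no read in ADSM, at least 475-fold and 464-fold higher. Factors that mark the hind limb and its far end were among them. Tbx4 was 161, 142 and 121 and Pitx1 63.5, 60.9 and 91.98, both without a read in ADSM, and Hoxd13 was 250.3, 256 and 126 against 0, 1.04 and 1.87, with these 3 named after their values were seen. Of 15 tested YAP/TEAD target and CCN genes 14 were higher and Nuak2 was not called. Amotl2, a feedback target, was 1226, 1300.5 and 2208 against 0.854, 1.04 and 0.935, and Wisp2, a CCN protein, 4226, 4207 and 4007 against 5.13, 4.15 and 1.87.

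Receptors for mesenchymal growth factors were higher in 23 of 25 tested, and Tgfbr2 and Ptch1 were not called. Pdgfra was 2742, 2432 and 976 in NDSF with no read in ADSM, at least 2176-fold, and NDSF library 3 was the lowest. Ddr2, a collagen receptor, was 1814, 1695 and 1377 against 0, 1.04 and 0, and Fgfr1 998, 944 and 587 against no read. Tgfbr2, by contrast, was 652, 673 and 556 against 686, 652 and 632 (log2 fold change -0.07, 95% interval -0.30 to 0.16). All 14 tested Wnt ligands and secreted antagonists, all 18 tested BMP and activin ligands and antagonists, and 11 of 12 tested genes of the IGF axis were higher as well. Of the 22 listed Wnt genes 15 had no read in ADSM, and of the 20 BMP and activin genes 10 had none. Members that passed only through fibroblast libraries had to be higher. With NDSF and ADSM alone, 13 Wnt genes and 15 BMP and activin genes passed the filter, all of them higher. Without any 1 NDSF library, 12 or 13 and 16 or 17 passed, again all higher. Wnt5a, a noncanonical Wnt, was 149, 129.8 and 159 against no read, and Rspo3, which amplifies Wnt signals, 116, 132 and 258 against no read. Fstl1, follistatin-like 1, was 6696, 6982 and 7393 against 3.42, 7.27 and 4.67. Igfbp7 was 2643, 2706 and 1543 against no read, Igfbp4 14739.6, 16168 and 17322 against 159.7, 230.4 and 166, and Igf2 398, 426 and 367 against no read. Igf1 itself was uneven in ADSM, at 15.4, 225 and 28.04 against 447, 439 and 264 in NDSF, with ADSM library 2 far above the others.

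Contractile genes were higher in 15 of 16 tested, and Tagln2, the nonmuscle member, was lower, at 641, 700.2 and 815 against 1071, 919.6 and 1103. Vcl, vinculin, was 1569, 1699 and 2659 in NDSF and 119, 127 and 121 in ADSM, and Mylk, which activates myosin, 566, 577 and 699 against 0, 0 and 1.87. This group separated NDSF library 3 from the others. Acta2, smooth muscle actin, was 2242, 2918 and 8789 against 11.96, 7.27 and 18.7 in ADSM, and Cnn1, calponin, 18.4, 25.97 and 451 against 1.71, 0 and 0, both named after their values were seen. The list took 0.416, 0.466 and 1.09% of the NDSF libraries, 0.07099, 0.0638 and 0.07099% of ADSM and 1.38, 1.804 and 1.77% of ADSF, so NDSF library 3 lay between the other NDSF libraries and ADSF. Against ADSF, 11 of the 16 genes were lower in NDSF and 1 was higher, where 11.3% of all tested genes were higher and 9.88% lower in NDSF than in ADSF.

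**Figure D3:**
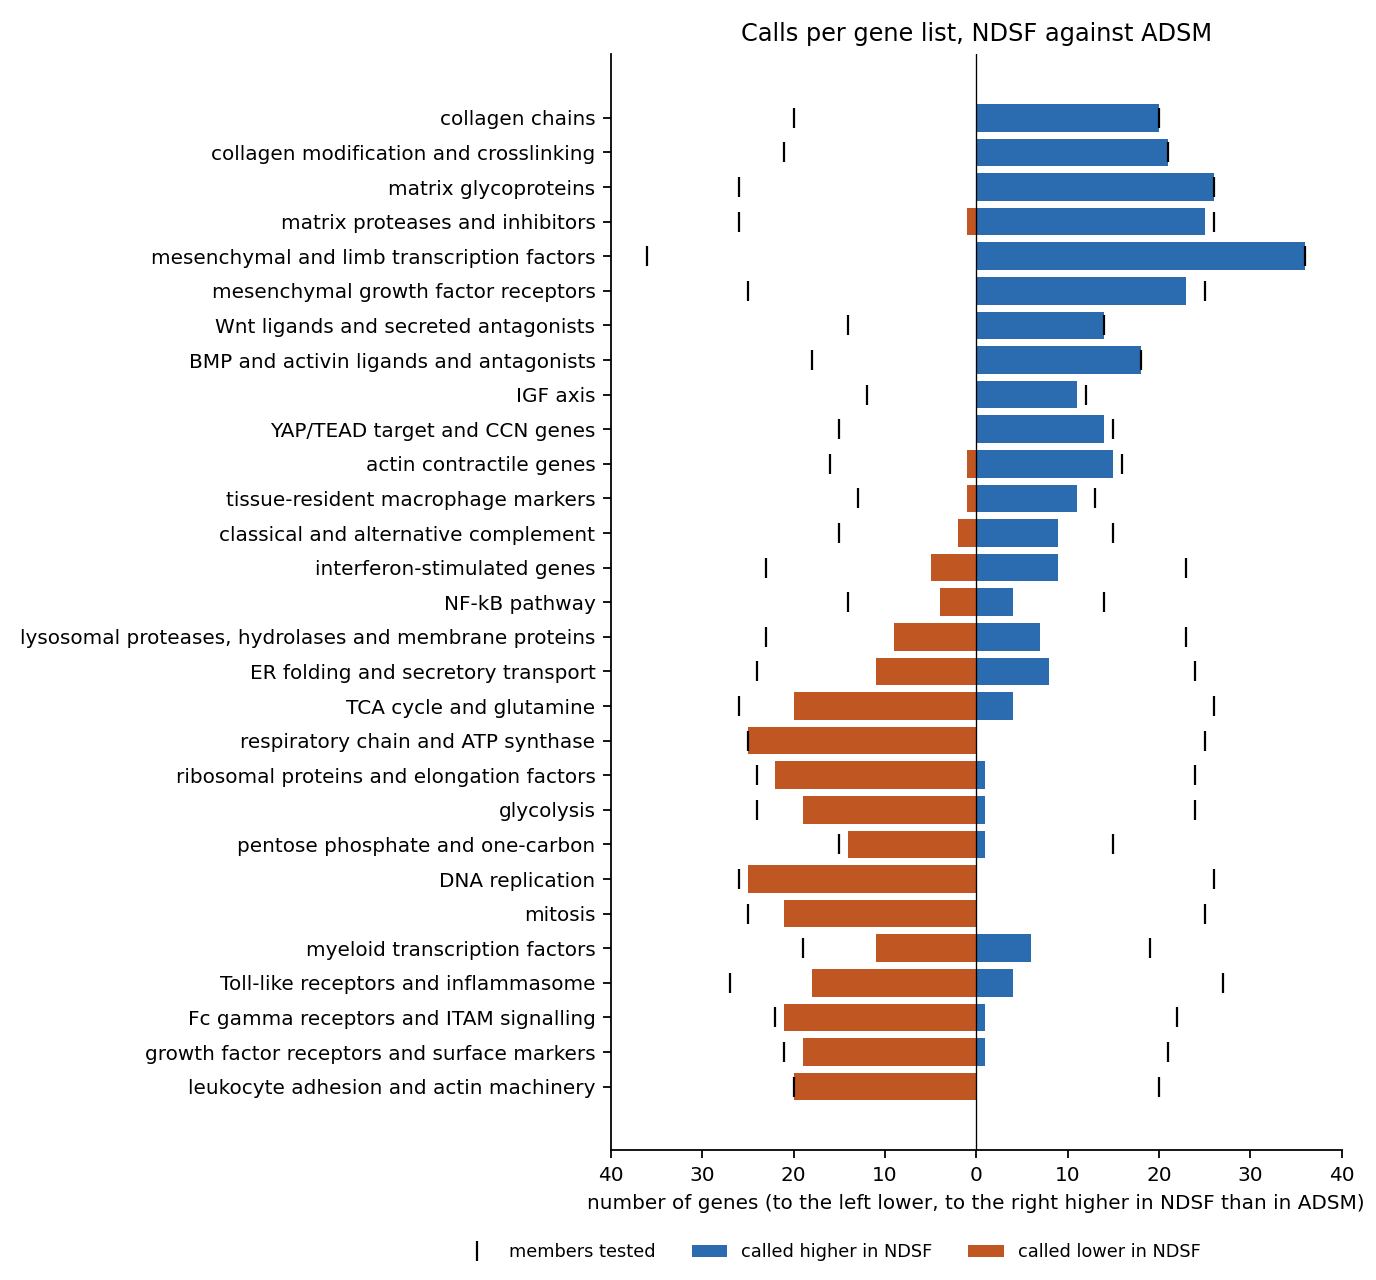
Number of members of 29 gene lists called higher in NDSF (blue, to the right) and lower (orange, to the left) than in ADSM, with black ticks at plus and minus the number tested. All 20 collagen chains, 26 matrix glycoproteins and 36 mesenchymal transcription factors were higher, all 20 leukocyte adhesion genes and 25 respiratory chain genes were lower, and lysosomal, NF-kB and secretory genes went both ways. Members that passed the filter only through the group where they were high had to differ.

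Ligands and receptors of 24 axes were read next, since fibroblasts and macrophages lie side by side in the joint and the study asked what fibroblasts send to macrophages. Of the ligands, 34 were higher in NDSF, 6 were lower and 2 were not called, while 17 were under the filter. The decoy receptor Tnfrsf11b and the antagonist Il1rn were counted with the ligands, both among the higher. Of the receptors, 29 were higher, 12 lower and 7 not called, with 5 under the filter. Among all tested genes 43.3% were higher and 32.0% lower. Members that passed only through fibroblast libraries had to be higher, and those that passed only through ADSM had to be lower. Csf1, the ligand of Csf1r, was 3307, 3637 and 6075 in NDSF and 5.98, 14.5 and 10.3 in ADSM (log2 fold change 8.61, SE 0.28, adjusted p = 5.71e-10), highest in NDSF library 3. Il34, the second ligand of the same receptor, was 30.4, 31.96 and 15.02 against no read. Per kilobase of exon the mean NDSF value of Csf1 was 981 and of Il34 14.03. Ligand and receptor thus lay in opposite groups for this axis. Csf2 had no read in any of the 6 libraries.

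The CXCL12 axis had its ligand and 1 receptor in NDSF. Cxcl12, a chemokine that retains leukocytes, was 11299.5, 10651 and 6736 against 2.56, 2.08 and 2.804 (log2 fold change 11.39), and the scavenging receptor Cxcr7 80.99, 80.9 and 252 against no read, while Cxcr4, the signalling receptor, was not called, at 13.8, 10.99 and 5.63 against 1.71, 10.4 and 3.74. For the receptors of dying cells, Gas6 and Pros1 were higher in NDSF and so were all 3 receptors. Axl was 1587, 1605 and 1695 against 5.13, 0 and 2.804, and Tyro3 86.5, 94.9 and 70.4 against 2.56, 0 and 2.804. Cx3cl1, the ligand of Cx3cr1, was 112, 133 and 109 in NDSF and 0, 0 and 0.935 in ADSM, opposite to its receptor. Kitl, stem cell factor, was 328, 334 and 332 against 4.27, 15.6 and 8.41, and its receptor Kit 27.6, 34.96 and 13.1 against no read. Kit also marks mast cells, and the other 6 genes of the mast cell list were under the filter. Kit passed only through the 3 NDSF libraries.

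Inflammatory ligands were found on both sides. Tnf was 11.96, 7.99 and 4.69 in NDSF and 144, 249 and 158 in ADSM (log2 fold change -4.36, SE 0.46, adjusted p = 6.14e-06). Both TNF receptors were higher in NDSF, Tnfrsf1a at 859, 812 and 638 against 273, 269 and 249 and Tnfrsf1b at 192, 198 and 180.2 against 50.4, 84.1 and 57.02. Il1b had 1 read in NDSF and was under the filter, whereas Il1rn, the antagonist, was 447, 429 and 785 against 53.8, 47.7 and 61.7, and Il1r1, the signalling receptor, 987, 949 and 594 against 0, 0 and 1.87. In the interleukin-6 family Il6st, the shared signalling chain, was 6403, 6315 and 3613 against 242, 289.6 and 248, but Il6ra, the chain that binds interleukin-6, was 18.4, 14.98 and 12.2 against 240.0, 245 and 228 (log2 fold change -3.90). Il10ra was 3.68, 5.99 and 1.88 against 110.2, 174 and 105, and Il10 itself had 1 read in each NDSF library and none in ADSM. Il33, an alarmin, was under the filter, at 88.3, 63.9 and 6.57 in NDSF and no read in ADSM, and its receptor Il1rl1 was 596, 748 and 417 against 131, 152 and 144.

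Growth factors of stroma and vessels were mostly on the side of NDSF. Pdgfc and Pdgfd were 42.3, 51.9 and 88.2 and 63.5, 68.9 and 103 in NDSF with no read in ADSM. Pdgfb was lower, at 30.4, 29.97 and 7.51 against 61.5, 57.1 and 43.9 (adjusted p = 0.0293), and that call was lost without ADSM library 1, ADSM library 2 or NDSF library 3 (adjusted p = 0.0813, 0.0704 and 0.0956) and under upper-quartile scaling (0.0502). Tgfb2 and Tgfb3 were higher in NDSF, at 297, 287 and 142 against 0, 1.04 and 0 and 892, 935 and 852 against 0, 0 and 1.87, and Tgfb1 was not called, at 237, 251 and 139.8 against 210.1, 199 and 196. Figf, which codes for VEGF-D, was 659.9, 598 and 399 against no read, at least 586-fold, and Vegfa 171, 187 and 258 against 56.4, 66.4 and 61.7. Hgf was 94.8, 95.9 and 72.3 against 0, 0 and 0.935, with its receptor Met on the same side, at 206, 243 and 85.4 against 0, 0 and 1.87. Nrp2, a coreceptor for VEGF and semaphorins, was lower, at 985, 983 and 634 against 2099, 1596 and 1772, and Sema4d, a leukocyte semaphorin, was 8.28, 3.995 and 4.69 against 454, 479.5 and 346. Tnfrsf11b, the decoy for RANK ligand, was 52.5, 46.9 and 222 in NDSF, highest in library 3, against 0.854, 0 and 0.935, and the ligand itself, Tnfsf11, 14.7, 17.98 and 8.45 against no read.

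**Figure D4:**
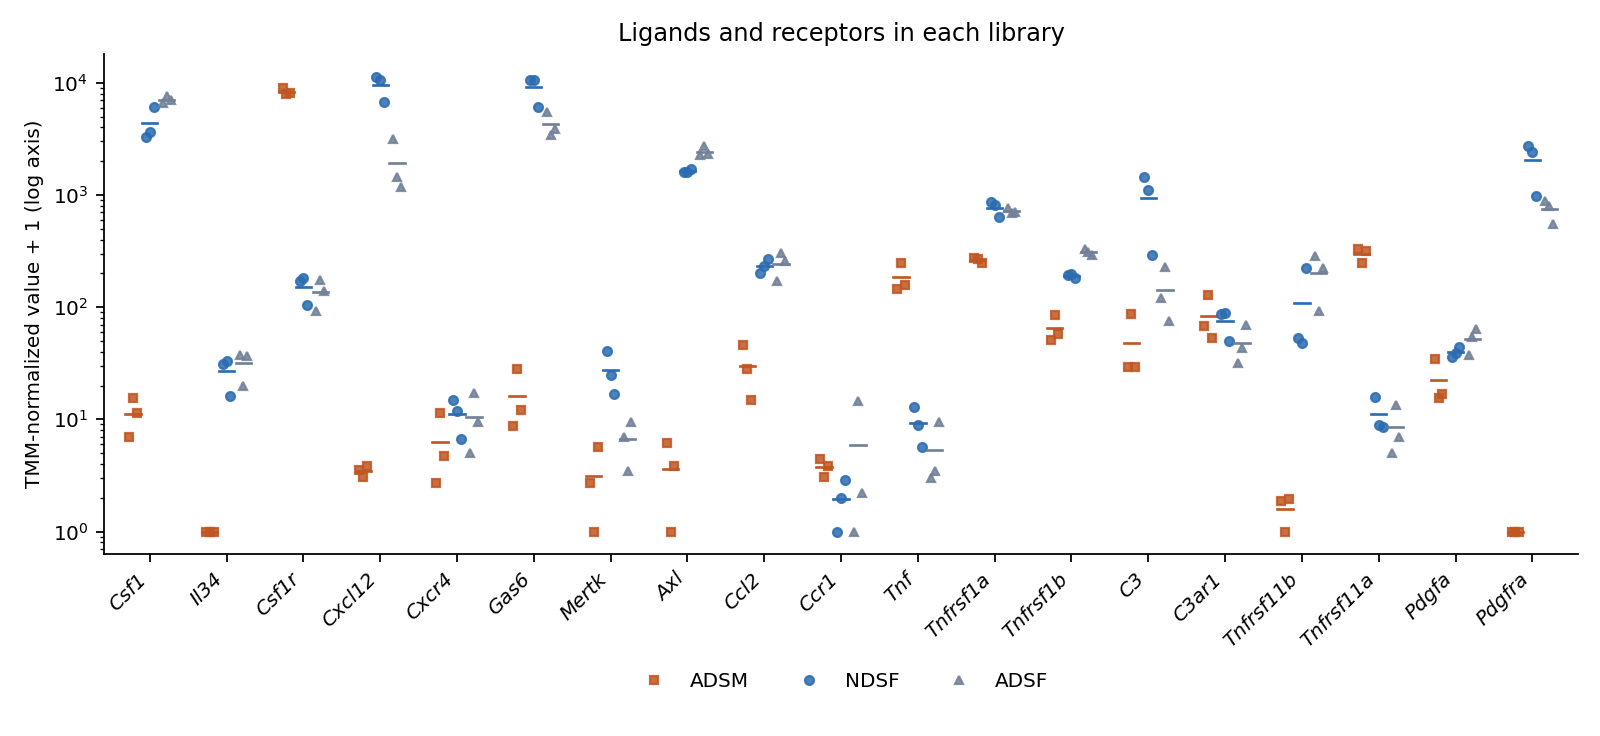
Value plus 1 (log axis) of 19 ligands and receptors in each library, ADSM as orange squares, NDSF as blue circles and ADSF as grey triangles, with a line at each group mean. Csf1 and Cxcl12 lie in the fibroblast groups and Csf1r in ADSM, Tnf lies in ADSM with both of its receptors higher in NDSF, and Cxcr4 and C3ar1 overlap between NDSF and ADSM.

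Of 9 tested genes of CXC chemokines and their receptors, a list that also held Cx3cl1, 6 were higher in NDSF. Cxcl16 and Cxcr3 were lower and Cxcr4 was not called. Complement genes were more often higher than lower, and CC chemokines went both ways. Ccl2, which draws monocytes, was 201, 229.7 and 267 in NDSF and 45.3, 26.99 and 14.02 in ADSM, and Ccl7 150.0, 142 and 265 against 2.56, 0 and 1.87. Ccl3, Ccl4 and Ccl9 were lower, with Ccl3 at 11.96, 13.98 and 1.88 against 119, 201 and 129.9. Cxcl5, which draws neutrophils, was 364, 291 and 277 against no read. Of 15 tested complement genes 9 were higher and 2 lower, against 43.3% and 32.0% of all tested genes. C3, the central component, was 1432, 1096 and 291 against 28.2, 85.1 and 28.04 (log2 fold change 4.21, adjusted p = 9.47e-05), C1s, a protease of the classical pathway, 1067, 919.9 and 412 against no read, and Serping1, the C1 inhibitor, 2282, 2068 and 1160.1 against 0, 0 and 3.74. NDSF library 3 was the lowest for all 3. Cfp (properdin) and C5ar1, the receptor for C5a, were lower in NDSF, at 46.9, 31.96 and 20.6 against 503, 382 and 482 and 58.9, 82.9 and 17.8 against 117, 164 and 105. The C5ar1 call was lost without ADSM library 2 (adjusted p = 0.0618). C3ar1 was not called (-0.10, 95% interval -0.93 to 0.73).

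Interferon-stimulated genes were uneven within both groups. Of 23 tested 9 were higher in NDSF, 5 were lower and 9 were not called. Among all tested genes 43.3% were higher and 32.0% lower. Without NDSF library 3 the counts of the list were 13 and 4. Ifih1, a sensor of viral RNA, was 199, 173 and 77.9 against 21.4, 12.5 and 37.4, and Ifit2 169, 169.8 and 85.4 against 20.5, 29.1 and 17.8. The 5 lower genes were Oas1a, Oas2 and Oas3, whose enzymes make the signal for RNA decay, their relative Oasl1, and Ifi27l2a. Oas3 was 13.8, 5.99 and 3.75 in NDSF and 437, 203 and 496 in ADSM, and Oas2 32.2, 20.98 and 4.69 against 209, 118 and 236, each with its lowest ADSM value in library 2. Ifi27l2a, at 106, 39.95 and 4.69 against 207, 57.1 and 259.8, overlapped between the groups and lost its call in 13 of the 20 alternatives, among them those without NDSF library 2 or 3 or ADSM library 1 or 3 (adjusted p up to 0.157). The NF-kB list gave 4 higher and 4 lower of 14, against the same 43.3% and 32.0% of all tested genes. Rela was 227, 255 and 206 against 126, 132 and 129.9 and Rel, its lymphoid and myeloid relative, 13.8, 15.98 and 14.1 against 48.7, 58.1 and 63.6. Under total-read scaling the counts of this list were 2 and 5.

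Genes of proliferation were lower in NDSF. Of 26 tested DNA replication genes 25 were lower and Rrm2 was not called, and of 25 tested mitosis genes 21 were lower (median log2 fold changes -1.96 and -1.42). Mcm3, a subunit of the replicative helicase, was 119, 146 and 212 in NDSF and 1051, 915 and 1009 in ADSM (log2 fold change -2.67, SE 0.21, adjusted p = 6.57e-07). Fen1, which trims Okazaki fragments, was 39.6, 55.9 and 98.6 against 524, 427 and 533, and Bub1b, a spindle checkpoint kinase, 103, 146 and 246 against 979.8, 842 and 947. NDSF library 3 had the highest value of its group for Mcm3, Fen1 and Bub1b and still lay below every ADSM library. Without it, 26 of 26 and 25 of 25 were lower.

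Genes of energy metabolism were also lower, by smaller factors. Of 24 tested glycolysis genes 19 were lower, 1 was higher and 4 were not called (median log2 fold change -1.21), and the list took 0.519, 0.524 and 0.561% of the NDSF libraries and 1.94, 1.69 and 1.96% of ADSM. Pkm, pyruvate kinase, was 4919, 5012 and 4603 against 18066, 14794 and 17773 (log2 fold change -1.80, SE 0.12, adjusted p = 2.09e-07), and Slc2a3, a high-affinity glucose transporter, 15.6, 10.99 and 6.57 against 158, 154 and 138. Slc2a1, the common glucose transporter, was not called, at 199, 172 and 184 against 225, 189 and 212. Pfkm, the muscle form of phosphofructokinase, was the exception, at 164, 154 and 99.5 against 74.3, 50.9 and 67.3. Skeletal muscle genes were present in the same NDSF libraries, as given below, and their part in the Pfkm value was not tested. Of 26 tested TCA cycle and glutamine genes 20 were lower, among them Mdh1, malate dehydrogenase, at 336, 311 and 346 against 1576, 1506 and 1498, and Irg1, which makes itaconate in activated macrophages, at 1.84, 0.999 and 0 against 71.8, 144 and 108. Those higher included Pdha1, Pcx and Sucla2, with log2 fold changes of 1.22, 1.49 and 0.37. Sucla2 was not called under total-read scaling, nor without ADSM library 2 (adjusted p = 0.0665). All 25 tested genes of the respiratory chain and ATP synthase were lower, such as Cox7a2 at 147, 159.8 and 178 against 591, 444 and 545 (median log2 fold change -0.88), 25 also under total-read scaling and 23 under upper-quartile scaling. Pentose phosphate and one-carbon genes were lower in 14 of 15, with Tkt, transketolase, at 576, 562 and 562 against 2133, 1771 and 1938, and Aldh1l2 was higher.

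Ribosomal and secretory genes were read in the same way. Of 24 tested ribosomal proteins and elongation factors 22 were lower in NDSF (median log2 fold change -0.77), 23 under total-read scaling and 19 under upper-quartile scaling, and they took 2.94, 2.98 and 3.102% of the NDSF libraries and 6.12, 5.26 and 5.83% of ADSM. Rpl3 was 3215, 3353 and 3437 against 7757, 6106 and 6994, and Rplp1, at 3008, 3105 and 3294 against 2453, 1836 and 2321, was higher, a call lost under total-read scaling. Ribosomal protein genes have many near-identical copies, with which their reads may be shared. In the secretory pathway 8 of 24 tested genes were higher and 11 lower, against 43.3% and 32.0% of all tested genes. Those higher were COPII coat subunits, receptors that sort cargo and the transcription factors Creb3l1 and Creb3l2. Sec23a, a COPII coat subunit, was 544, 528 and 715 against 126, 138 and 137, Creb3l1, a transcription factor of collagen secretion, 353, 401 and 312 against 0.854, 3.11 and 1.87, and Kdelr3, which returns escaped chaperones, 253, 289.7 and 269 against 2.56, 2.08 and 4.67. Those lower were chaperones, disulfide isomerases and subunits of the Sec61 channel, among them Hspa5, the chaperone BiP, at 3464, 4018 and 4539.9 against 9257, 10047 and 10122, along with Xbp1, a factor of the unfolded protein response, at 434, 451 and 429.9 against 1095, 938 and 1024. Under upper-quartile scaling the counts were 10 and 10. Lipid genes were mixed, with Apoe at 260.4, 209 and 93.9 against 13.7, 6.23 and 5.61, Abcg1, a cholesterol exporter, at 26.7, 32.96 and 18.8 against 533, 477 and 502, and Fabp5 at 72.7, 91.9 and 360.4 against 1159, 1582 and 1052.

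On the linear scale the largest differences between the group means combined lineage genes with genes that every cell uses. In favour of ADSM they were Lyz2, Lyz1, Eef1a1, Pkm, Csf1r, Itga4, Ptma, Hspa8, Hspa5 and Gapdh. Eef1a1, an elongation factor, was 28199.9, 28578 and 26915 in NDSF and 47262, 38603 and 44791 in ADSM (log2 fold change -0.64), and Ptma, prothymosin alpha, 2425, 2490.1 and 2928 against 10138, 7899 and 9819.7. Hspa8, a chaperone, was 4805, 5115 and 6743 against 12128, 10303 and 12191, and Gapdh, often taken as a reference for RT-qPCR, 2284, 2258 and 2624 against 8313, 6770.3 and 8551. In favour of NDSF they were Col1a1, Col1a2, Fn1, Col3a1, Thbs1, Sparc, Lox, Col5a2, Bgn and Vim. Sparc, a collagen-binding glycoprotein, was 29246, 29960.3 and 24643 in NDSF and 17.9, 18.7 and 31.8 in ADSM, and Vim (vimentin), an intermediate filament of mesenchymal and blood cells, was already high in ADSM, at 19334, 19506 and 14768 against 2058, 1900.4 and 1901 (log2 fold change 3.18).

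Some abundant genes hardly differed between cell types as unlike as these. Of 209 tested genes with a mean of at least 1000 in both groups, 27 were higher in NDSF, 128 were lower and the rest were not called. Ywhaz, a 14-3-3 protein, was 1193, 1167 and 1347 in NDSF and 1152, 1157 and 1257 in ADSM (log2 fold change 0.05, 95% interval -0.15 to 0.26). H3f3b, a replacement histone, was 982, 1031 and 1418 against 1197, 981 and 1182 (0.02, -0.30 to 0.34), and Tmed10, a cargo receptor, 1126, 1122 and 961 against 1084, 1007 and 1093 (0.01, -0.20 to 0.22). Gnb1, Rps26, Rpl13a and Ctsl had log2 fold changes between -0.05 and -0.01. The eighth of them, the nuclear RNA Neat1, was near 0 only on average, at 1878, 1711 and 506 in NDSF and 1222, 1265 and 1067 in ADSM, since NDSF library 3 lay below ADSM and the others above it. Without NDSF library 3 its log2 fold change was 0.60 (adjusted p = 0.0052). Under total-read scaling Tmed10 was lower, at -0.26 (adjusted p = 0.0186).

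A further list was of genes chosen for RT-qPCR in the study. Lineage markers and Csf1 were compared there between ADSM, NDSF and ADSF. Metabolic, inflammatory and macrophage subset genes were instead measured in ADSM given conditioned media, which is another comparison than the one here. Of the RT-qPCR genes 30 were tested here, of which 11 were higher and 15 lower in NDSF, against 43.3% and 32.0% of all tested genes. Hif1a, the hypoxia factor, was 842, 969.9 and 1157 in NDSF and 304, 374 and 336 in ADSM, and Cd36, a fatty acid and scavenger receptor, was 273, 256 and 100.4 against 60.7, 92.4 and 103, with NDSF library 3 inside the ADSM range. Slc1a5, a glutamine transporter, was 715, 750.1 and 787 against 1060.1, 976 and 1073 (log2 fold change -0.46). Pfkfb1, Pfkfb3, Slc2a1 and Irf4 were not called, and Csf2, Nos2, Il1b, Il10, Cd86 and 5 others were under the filter.

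NDSF libraries also held RNA of skeletal muscle and vessels that was near 0 in ADSM. The list of 22 skeletal muscle genes took 0.116, 0.0879 and 0.0466% of NDSF libraries 1, 2 and 3, 0.00338, 0.00504 and 0.00326% of ADSM and 0.00363, 0.00248 and 0.00348% of ADSF. Of these genes 17 passed the filter, of which 16 were called higher than in ADSM and all 17 higher than in ADSF, but most passed only through the 3 NDSF libraries, and without any 1 of them 3 passed, so those counts were largely fixed by the filter. Myh3, the embryonic myosin heavy chain, was 806, 607 and 249 in NDSF, with no read in ADSM and 2.98, 4.98 and 1.202 in ADSF. Myod1 and Myog, the muscle lineage factors, were 81.9, 61.9 and 23.5 and 178, 149.8 and 70.4 with no read in ADSM. Tnni2, a fast troponin, was the exception, at 19.3, 20.98 and 13.1 against 78.6, 109 and 70.1. Des, desmin, counted above among contractile genes, was 304, 259 and 129.5 in NDSF, no read in ADSM and 11.9, 9.96 and 13.2 in ADSF, the same order of libraries as the muscle list. Endothelial genes took 0.0163, 0.0121 and 0.00564% of NDSF and at most 0.000398% of ADSM, and Cdh5, the cadherin of vessels, was 126, 90.9 and 31.9 against 0.854, 0 and 1.87. The 4 endothelial genes that passed the filter fell to 1 without any 1 NDSF library. All 4 tested genes each of tendon, cartilage and pericytes were higher in NDSF, as were 5 of 6 of bone and 3 of 4 of nerve sheath. Of all tested genes 43.3% were higher, and members that passed only through fibroblast libraries had to be. ADSF held such RNA too. Cartilage genes took 0.00704 to 0.0168% of NDSF and 0.0203 to 0.0443% of ADSF. For tendon the shares were 0.197 to 0.521% and 0.0542 to 0.585%, and for pericytes 0.016 to 0.0198% and 0.0171 to 0.0185%. For bone they were 0.0709 to 0.229% and 0.115 to 0.1995%, and for nerve sheath 0.0201 to 0.0325% and 0.0133 to 0.0195%. Tnmd, a tendon marker, was 192, 227 and 249 and Acan, the cartilage proteoglycan, 11.04, 27.97 and 28.2, both without a read in ADSM, and Ngfr, found on Schwann cells, 129.8, 96.9 and 18.8 against 0.854, 0 and 0. Ibsp and Phex, bone genes, were 125, 125 and 17.8 and 92.03, 77.9 and 31.9 in NDSF with no read in ADSM. Mbp was lower in NDSF, at 24.8, 30.96 and 10.3 against 443, 331 and 389, and Spp1 (osteopontin), made by bone cells and macrophages, was not called, at 6482, 5585 and 1538 in NDSF and 5574, 10304 and 7859 in ADSM, but it was lower under total-read scaling and without NDSF library 1 or 2. Through Spp1 the bone list took 0.212, 0.417 and 0.304% of the ADSM libraries and 0.229, 0.197 and 0.0709% of NDSF. No gene of the T and NK cell, B cell, neutrophil, dendritic cell and red cell lists passed the filter. Muscle, endothelial and macrophage shares were all lowest in NDSF library 3.

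**Figure D5:**
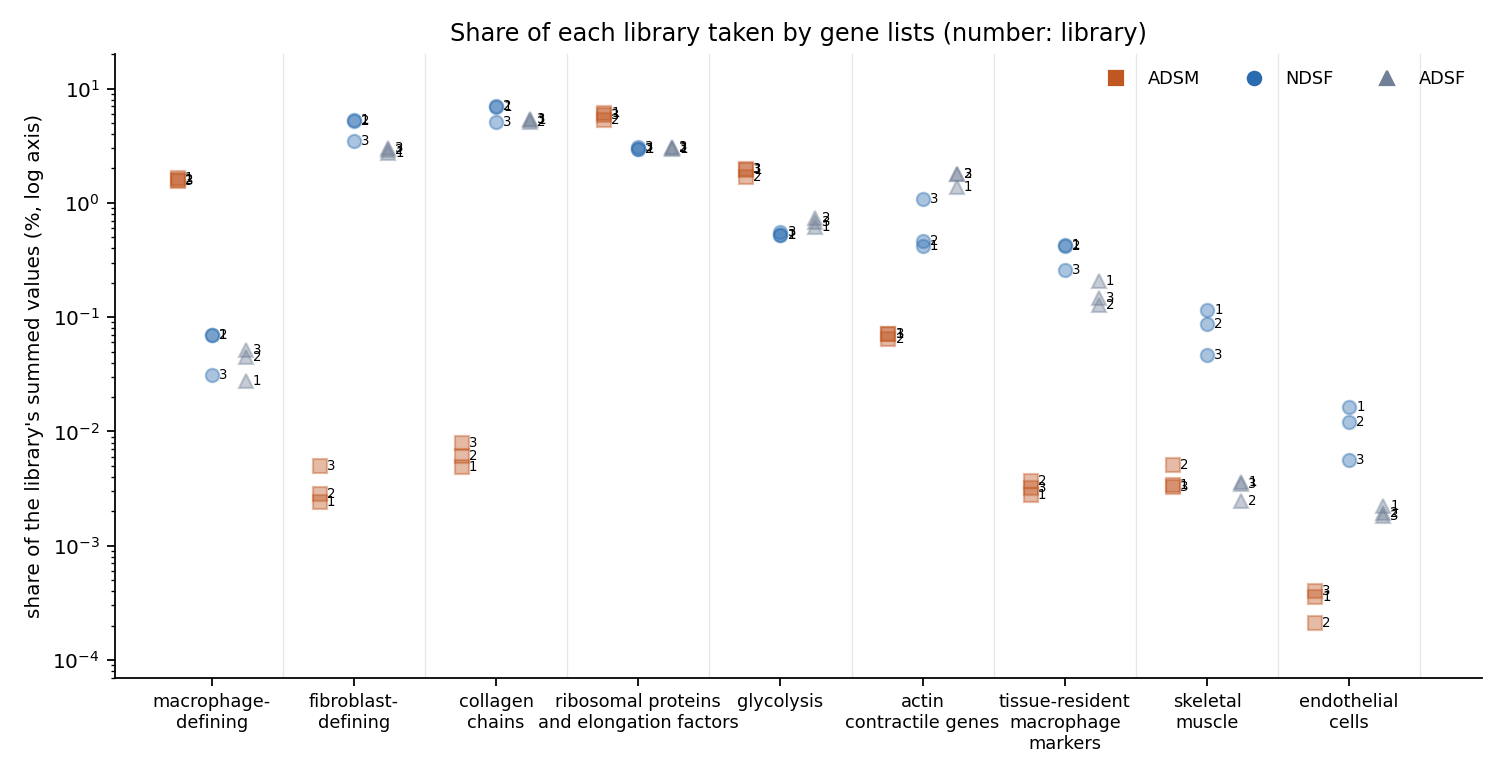
Share of each library's summed values (percent, log axis) taken by 9 gene lists, with the library number beside each point, for ADSM (orange squares), NDSF (blue circles) and ADSF (grey triangles). Collagen chains take 5.11 to 7.0% of NDSF and under 0.01% of ADSM, muscle and endothelial genes are highest in NDSF, and NDSF library 3 is the lowest of its group for macrophage, muscle and endothelial genes and the highest for contractile genes.

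ADSF libraries showed which of these differences were shared by fibroblasts of arthritic ankles, whose libraries were made with the same kit as ADSM. NDSF and ADSF were each compared with the same ADSM libraries, so their values are only set side by side. For collagen chains the median log2 fold change between NDSF and ADSF was 0.09, with 1 of 20 called higher and 3 lower. Of all tested genes 11.3% were higher and 9.88% lower in NDSF than in ADSF. Among small leucine-rich proteoglycans 6 of 10 were higher in NDSF than in ADSF, with a median of 2.66. Other lists also had many members higher, such as complement (8 of 15, with 2 lower) and the IGF axis (6 of 12, with 1 lower). Dcn was 339, 586 and 421 in ADSF, 6943, 5878 and 1719 in NDSF and 0.854, 0 and 0.935 in ADSM. Sfrp2 was 551, 288 and 123 in ADSF (log2 fold change between NDSF and ADSF 4.70, adjusted p = 3.22e-04), Eln 127, 42.3 and 34.9 (5.67, adjusted p = 3.90e-05) and Myoc 11.9, 1.24 and 0 (9.28, adjusted p = 1.99e-04). For these 4 genes the ADSF mean lay between those of ADSM and NDSF. Csf1r was 91.3, 173 and 139 in ADSF and was not called between NDSF and ADSF (0.18, adjusted p = 0.637), and Csf1 was 6567, 7569 and 7007 (-0.75, adjusted p = 0.0807). State of the ankle and, by the study's methods, library kit differ together between NDSF and ADSF and cannot be told apart.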

How the data were processed

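RNA from 3 cultures each of ADSM, ADSF and NDSF was sequenced. The authors aligned reads with TopHat to mm10, and the submitters' notes also name Cufflinks, in both cases without a version. No source used here names the read counter or its strand setting, so values of overlapping genes and of genes with near-identical copies are uncertain. The authors deposited TMM-normalized signal values per gene and library. Columns of the authors' own p-values and adjusted values were not used, and neither were the other deposited tables. There were 0 columns of per-sample values without a sample.

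Each library's values were whole multiples of 1 value, so reads were recovered (100% of values were whole within 0.001). limma with a variance trend was fitted to log2(value + 1) of genes that reached 10 in 3 or more of the 9 libraries, with a mean per group and Benjamini-Hochberg adjustment over all 11889 tested genes, and edgeR on the recovered reads, an alternative, called 5133 genes higher and 3818 lower. Libraries held 2380483 to 3351184 reads. Counting intervals and floors (3 reads over a group) cover counting error only, whereas the 95% intervals of log2 fold changes come from the limma fit and its spread between libraries. Alternatives were DESeq2, other pseudocounts, filters, scalings and samples, a replicate block and each library left out. The script was tested on simulated counts. Promoters and their build (GRCm38.p6) came from RefSeq.

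Named were the 15 genes of largest fold change in each direction (no overlap, mean of at least 50), the 10 of largest linear difference, up to 3 called members of each list and direction by adjusted p with all called members against the list's direction, ligand and receptor pairs, markers of other cells, the 8 least changed of the genes with a mean of at least 1000 in both groups, the RT-qPCR genes of the study, and Y-linked genes with Xist. C1qa, Mrc1, Folr2, Acta2, Cnn1, Tlr2, Tlr4, Tbx4, Pitx1, Hoxd13, Mmp3, Mmp13, Timp1, Trem2 and Cd44, and a few members given for missing the test or the filter, were chosen after their values were seen. The groups, gene lists and rules were chosen with earlier results of these data known. Tools were R 4.3.3, limma 3.58.1, edgeR 4.0.16, DESeq2 1.42.0, Python 3.11.15, pandas 2.3.3, scipy 1.17.1 and matplotlib 3.10.9. Some results are not reported here.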

Additional observations from a re-analysis of the deposited data

How the results depend on the processing

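Across the 20 alternatives no gene called in the main comparison was called in the opposite direction. Genes called numbered 4690 to 5079 higher and 3249 to 3896 lower when any 1 library was left out, the lowest counts being those without NDSF library 2 and ADSM library 3. DESeq2 called 5060 and 3527, a filter of 50 called 3727 and 3316, and no filter called 6514 and 3945. Of the named genes, Neat1 moved from -0.01 to 0.60 on the log2 scale without NDSF library 3 and to -0.34 without NDSF library 1, and Tmed10 from 0.01 to -0.26 under total-read scaling, and 11 others lost their call under that scaling. The median of the secretory list moved from -0.18 to -0.45 under total-read and -0.03 under upper-quartile scaling, and that of the NF-kB list from 0.07 to -0.19 and 0.22. With the replicate number as a block, 5110 genes were higher and 3779 lower. Libraries with the same number in NDSF and ADSM correlated at 0.0178, 0.0153 and 0.0369 in their deviations from the group means, each library best with its own number, and nothing in the labels pairs them. A gene with single reads in both groups could not be compared at this depth.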
